A study of Rattus norvegicus with 12 samples.

Results

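Loss of one splicing regulator, RBPMS, was set directly against loss of another, MBNL, in rat PAC1 cells, a smooth muscle cell line from pulmonary artery. The comparison took the 3 RBPMS KD1 libraries and the 3 MBNL KD libraries, 6 of the 12 libraries of the series, and every gene of the count table, with no control library in the fit. Of 33294 genes in the table, 16111 had enough counts to be tested. Both groups were differentiated PAC1 cells, which were split once a week, and both received 90 pmol of siRNA, a second dose after 24 h and a harvest 48 h after that dose, as the labels give it. The methods of the study describe a longer schedule for its knockdowns, so the time from the first dose to harvest is not settled. RBPMS KD1 cells received an siRNA against Rbpms, and MBNL KD cells received siRNAs against both Mbnl1 and Mbnl2 (the sample titles name only MBNL1, the treatment field names both). The other libraries were 3 of differentiated cells with control siRNA (D1) and 3 of proliferative cells (P). D1 levels are given beside the knockdown values for orientation and took no part in any test. Messenger RNA was selected by its poly(A) tail and sequenced from strand-specific libraries.

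RBPMS and the muscleblind-like (MBNL) proteins bind RNA and decide, at many genes, which exons are kept. RBPMS is abundant in differentiated smooth muscle cells, while MBNL proteins are best known from heart and skeletal muscle, where their sequestration by expanded repeat RNA causes the mis-splicing of myotonic dystrophy. Smooth muscle cells contract with a dedicated set of proteins, among them smooth muscle myosin heavy chain (Myh11), smooth muscle actin (Acta2) and calponin (Cnn1), and lose these proteins when they leave the contractile state. The values below are RNA abundance per gene and do not measure splicing.

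The reagents are shown because they differ between the groups in number, maker and design, not only in target. The sense strands were as follows, 5′ to 3′, with the 3′ uu overhang in lower case where the source gives one.
RBPMS siRNA: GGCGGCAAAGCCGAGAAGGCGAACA
MBNL1 siRNA: CACGGAAUGUAAAUUUGCAuu
MBNL2 siRNA: GAAGAGUAAUUGCCUGCUUuu
Control siRNA (D1): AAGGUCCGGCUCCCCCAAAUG
The RBPMS duplex had 25 bases and 64.0% G and C, and the MBNL1 and MBNL2 duplexes had 21 bases each and 33.3% and 38.1% G and C. One duplex was used per targeted gene, so an effect of losing the protein and an effect of the duplex on other RNAs cannot be told apart in these data.

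The 6 libraries held 80842635 to 90771289 counts, the fewest in MBNL KD replicate 3. Levels below are counts per 1000000 counts of a library (CPM), scaled by the trimmed mean of M values (TMM), and each run of 3 values gives replicates 1, 2 and 3. MBNL KD replicate 3 was the highest of the 6 libraries in 39 of 104 tested RNAs of classes that carry no poly(A) tail, and it stood far apart in 3 of them. Rn45s, the ribosomal RNA precursor, was at 167, 168 and 179 CPM in RBPMS KD1 and at 239, 225 and 2095 in MBNL KD. Rpph1, the RNA of ribonuclease P, was at 0.605, 0.54 and 0.601 and at 0.725, 1.3 and 23.8. Rn7sl1, the RNA of the signal recognition particle, was at 0.269, 0.315 and 0.089 and at 0.33, 0.372 and 4.68. Each of the 3 was called higher in MBNL KD with all libraries, with log2 fold changes of -2.31, -3.86 and -2.97, and none was called without that library, where the values were -0.43, -0.79 and -0.64. Over all genes the total number of calls was 1920 with it and 1975 without it. On the log2 scale the root mean square distance between libraries of 1 group was 0.308 to 0.334, against 0.719 to 0.738 between groups.

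The siRNA targets separated the groups in the direction of the labels. Rbpms was at 36.7, 36.6 and 37.8 CPM in the RBPMS KD1 libraries and at 126, 123 and 121 in the MBNL KD libraries (D1 mean 147). Mbnl1 was at 362, 372 and 376 in RBPMS KD1 and at 80.2, 80.4 and 82.6 in MBNL KD (D1 mean 341). Mbnl2 was at 195, 199 and 205 and at 51.3, 53.3 and 52.9 (D1 mean 177). In all 3 genes every library of the targeted group lay below every library of the other group. The log2 fold change, given throughout as RBPMS KD1 minus MBNL KD with its standard error, was -1.74 ± 0.03 for Rbpms (adjusted p = 9.42e-29, from the quasi-likelihood test of edgeR adjusted by Benjamini and Hochberg over all genes tested), 2.19 ± 0.03 for Mbnl1 (adjusted p = 1.48e-31) and 1.93 ± 0.03 for Mbnl2 (adjusted p = 1.37e-30). A signed number in parentheses after the levels of a gene is this log2 fold change. The paralog Rbpms2 overlapped between the groups, at 22.8, 26 and 23.9 in RBPMS KD1 and 23.4, 24.6 and 21.9 in MBNL KD (adjusted p = 0.319). Mbnl3, the paralog that no siRNA was directed at, was at 21, 19.5 and 20.6 in RBPMS KD1 and higher at 33.4, 34 and 35.3 in MBNL KD, a log2 fold change of -0.75 ± 0.04 that passed the test (adjusted p = 1.22e-15) but not the fold threshold used below.

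**Figure D1:**
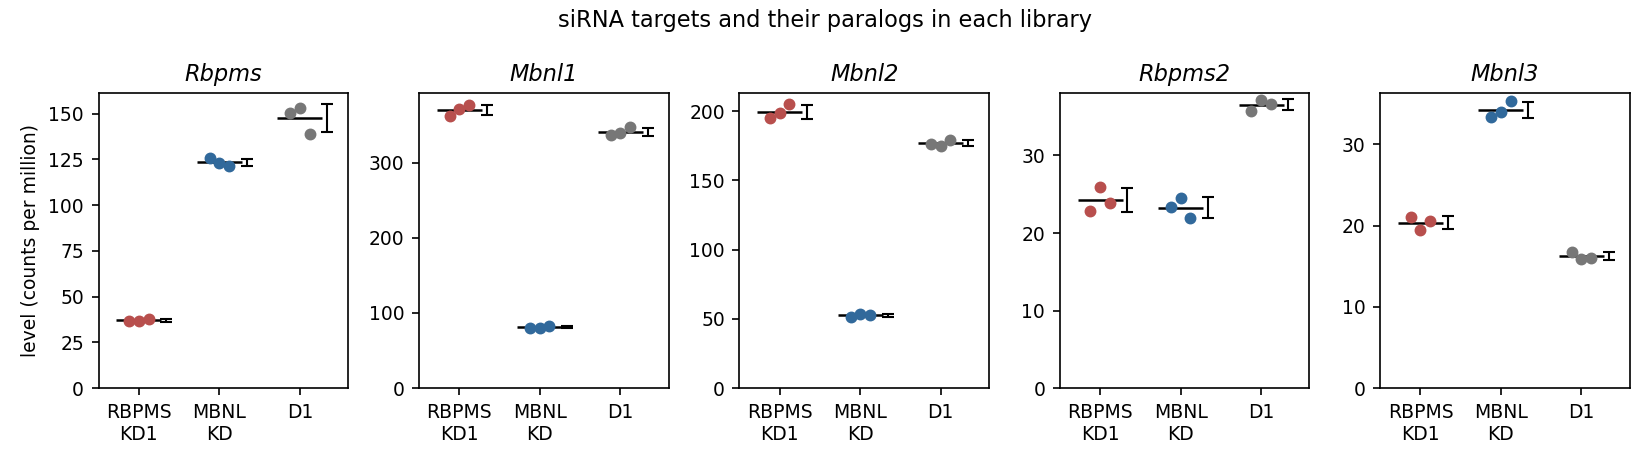
Level in CPM (linear axes from 0) of the siRNA targets Rbpms, Mbnl1 and Mbnl2 and of their paralogs Rbpms2 and Mbnl3, with 1 point per library, the group mean as a line and the SD as an error bar beside it (n = 3). The targeted genes are low in their own knockdown, Rbpms2 lies at 21.9 to 26.0 CPM in both knockdowns, and Mbnl3 lies at 33.4 to 35.3 CPM in MBNL KD against 19.5 to 21.0 CPM in RBPMS KD1.

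A gene was called when its adjusted p was below 0.05 and its levels differed by more than 2-fold. Of the 16111 genes tested, 1920 (11.9%) were called, 972 (6.03%) higher in RBPMS KD1 and 948 (5.88%) higher in MBNL KD. The adjusted p alone was passed by 11202 genes (69.5%), and in 11568 (71.8%) the 6 libraries fell into 2 groups that did not overlap. The calls were balanced in number but not in kind. Beyond an 8-fold difference there were 15 genes higher in RBPMS KD1 and 59 higher in MBNL KD. Among genes with a mean of 100 CPM or more, 85 were higher in RBPMS KD1 and 42 in MBNL KD, whereas from 0.1 to 1 CPM the counts were 316 and 460. Of 1216 long noncoding RNAs, 258 (21.2%) were called, 89 higher in RBPMS KD1 and 169 in MBNL KD, and of 12819 protein-coding genes 1441 (11.2%), 805 and 636. On the log2(CPM + 0.1) scale the D1 mean lay closer to RBPMS KD1 than to MBNL KD in 1399 (72.9%) of the called genes, and it lay between both knockdowns in 1322 (68.9%).

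**Figure D2:**
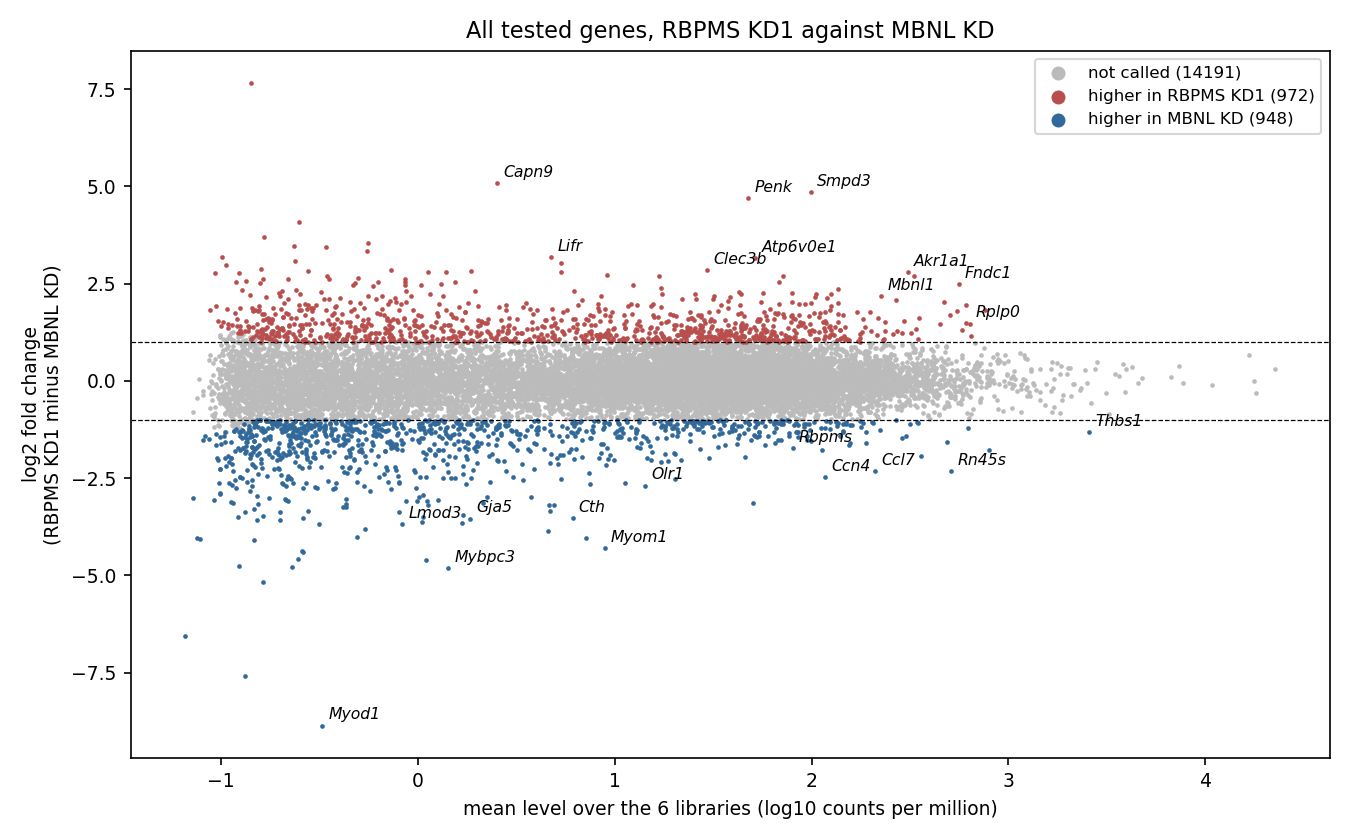
Mean level over the 6 libraries (log10 CPM) against the log2 fold change of all 16111 tested genes, with 972 genes called higher in RBPMS KD1 in red, 948 called higher in MBNL KD in blue and dashed lines at a 2-fold difference. Of the labelled genes, Myod1, Mybpc3 and Myom1 lie lowest, at mean levels below 10 CPM, and Smpd3 (4.85) and Penk (4.7) lie high at mean levels above 10 CPM.

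Genes of the striated muscle sarcomere included many that were higher in MBNL KD. Of 28 tested striated muscle and Z-disc genes, 14 (50%) were called, 12 of them higher in MBNL KD, with a median log2 fold change of -0.71 against -0.01 over all genes. The shares called were 11.9% of all genes and 22.2% of genes with a mean of 0.1 to 1 CPM, where many of these muscle genes lie. Outside that list, 3 further sarcomere genes were among the 12 largest differences toward MBNL KD. Here and below, the 12 largest are ranked among called genes with non-overlapping groups and at least 1 CPM in the higher group. Myom1, a myosin-binding protein of the sarcomere's M-band, was at 0.806, 0.945 and 0.835 CPM in RBPMS KD1 and at 17.5, 17.1 and 16.2 in MBNL KD (D1 mean 1.49, log2 fold change -4.3 ± 0.09, adjusted p = 1.03e-26). Mybpc3, cardiac myosin-binding protein C, was at 0.0672, 0.0562 and 0.167 and at 3.66, 2.47 and 2.13 (D1 mean 0.234, log2 fold change -4.81 ± 0.28, adjusted p = 1.29e-15). Every MBNL KD library exceeded every RBPMS KD1 library in both genes, and D1 lay near RBPMS KD1. Lmod3, a leiomodin that nucleates thin filaments in skeletal muscle, was at 0.134, 0.135 and 0.089 in RBPMS KD1 and at 1.55, 1.32 and 1.75 in MBNL KD, a log2 fold change of -3.67 ± 0.27.

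The troponins, which carry the calcium switch of striated muscle, did not all differ alike. Among the listed genes, cardiac troponin T (Tnnt2) was at 1.08, 0.697 and 0.735 CPM in RBPMS KD1 and at 8.84, 7.8 and 8.92 in MBNL KD (log2 fold change -3.35 ± 0.12, adjusted p = 1.17e-20). Tnnc1, the slow and cardiac troponin C, was at 2.07, 2.1 and 1.54 and at 8.59, 7.81 and 8.78 (-2.14). Tnnc2, the fast troponin C, was at 0.157, 0.326 and 0.267 and at 1.9, 1.51 and 1.69 (-2.76). These 3 troponin genes were higher in every MBNL KD library, while Tnni3, cardiac troponin I, was called the other way (1.19). Embryonic myosin heavy chain (Myh3) was at 1.3, 1.89 and 1.59 in RBPMS KD1 and at 10.3, 9.25 and 7.81 in MBNL KD (-2.52). Calsequestrin 2 (Casq2), which stores calcium in the sarcoplasmic reticulum, was at 27.9, 30.4 and 27.6 in RBPMS KD1, at 79.5, 74.9 and 77.9 in MBNL KD and at 28.1 on average in D1 (-1.43). Further calls of the list higher in MBNL KD included Mb, Clcn1, Acta1, Myoz2 and Ryr2, from -3.51 to -1.61, and the other call higher in RBPMS KD1 was Actn3 (1.12). Ttn, Tcap, Neb, Ckm and Ryr1 did not pass the test (-0.83, -0.66, -0.50, -0.32 and 0.04).

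The myogenic transcription factor Myod1 had 0 counts in each RBPMS KD1 library and in each D1 library, against 64, 44 and 64 counts in the MBNL KD libraries (0.703, 0.482 and 0.779 CPM). Set against a floor of 3 counts per library it was at least 19.5-fold higher in MBNL KD (adjusted p = 7.35e-11). RGD1561551 was the only other gene with at most 3 counts in each RBPMS KD1 library and at least 30 in each MBNL KD library. Among counts up to 20, even counts were 2.15 to 2.36 times as frequent as odd ones in these libraries. The reason was not tested, and a small count may rest on fewer fragments than it names. Of the promoters of 23 striated list members found in RefSeq (assembly GRCr8, 250 bases before to 50 after the gene's start), 9 (39.1%) held the letters CAGCTG, the E-box form best known for MyoD binding, against 15.1% of all 27457 promoters, a share that describes the list and not these libraries. The stretches of 3 called members are shown with these letters in capitals, and the letters read the same on both strands.
Tnnt2, chr13:49818900-49818929 (+): gctttatctgagCAGCTGgaggaccacatg
Acta1, chr19:68784414-68784443 (-): gggaggagcggaCAGCTGggatactctcca
Myoz2, chr2:213852793-213852822 (-): gtcagttgatgtCAGCTGgatgccagtctc
The letters began 211, 237 and 32 bases before the gene's start. Of the 9 members with the letters 3 were called, and 11 of the 23 members with a promoter were called. A match of letters is no evidence of binding, and the counts were made on another assembly (mRatBN7.2).

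The contractile genes of smooth muscle also separated the knockdowns, by smaller steps and toward the same side. All 33 genes of the contractile smooth muscle list were tested. Of these, 8 (24.2%, against 11.9% of all genes) were called, 7 higher in MBNL KD and 1 (Synpo2) higher in RBPMS KD1, and the adjusted p alone was passed by 27 higher in MBNL KD and 3 higher in RBPMS KD1, against 35.1% and 34.5% of all genes (median log2 fold change -0.38). Myh11, smooth muscle myosin heavy chain, was at 26.2, 25.7 and 25.3 CPM in RBPMS KD1 and at 76.6, 69.8 and 73.4 in MBNL KD (D1 mean 50.5, log2 fold change -1.51 ± 0.04, adjusted p = 6.94e-25). Cnn1, calponin, was at 7.55, 6.68 and 6.21 and at 20.8, 19.9 and 20.5 (D1 mean 18.8, -1.58 ± 0.06, adjusted p = 1.59e-19). Mylk, the kinase that switches smooth muscle myosin on, was at 73.8, 73.4 and 73 and at 179, 171 and 172 (D1 mean 228, -1.25 ± 0.03, adjusted p = 9.64e-27). In Myh11 and Cnn1 D1 lay between the knockdowns, and in Mylk it lay above both. Acta2, smooth muscle actin, was at 2253, 2354 and 2296 in RBPMS KD1 and at 4167, 4136 and 4193 in MBNL KD, with D1 at 4945 on average (log2 fold change -0.86 ± 0.02). Tagln, transgelin, was at 1895, 1819 and 1718 and at 2372, 2338 and 2338, with D1 at 3186 (-0.38 ± 0.03). Acta2 and Tagln passed the test without reaching a 2-fold difference, as did Myl9 (-0.7), Smtn (-0.2) and Myocd (-0.14), the coactivator that drives the contractile programme.

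The largest differences of the contractile list were in Itga8, Nexn and Kcnmb1. Itga8, the smooth muscle integrin alpha 8, was at 5.93, 6.14 and 6.02 CPM in RBPMS KD1 and at 33.7, 35.9 and 34.3 in MBNL KD (D1 mean 6.26, -2.52 ± 0.05, adjusted p = 1.52e-26). Nexn, an actin-binding protein of the Z-disc and dense bodies, was at 51.5, 47.8 and 53.9 and at 177, 166 and 178 (D1 mean 139.5, -1.77 ± 0.03). Kcnmb1, the beta subunit of the large-conductance potassium channel, was at 1.39, 1.51 and 1.45 and at 5.47, 4.6 and 4.73 (-1.77 ± 0.11). For Itga8 the D1 level lay next to that of RBPMS KD1, whereas for Nexn it lay nearer MBNL KD. Synpo2, an actin-binding protein of smooth muscle, went the other way at 24.5, 25.5 and 23.1 in RBPMS KD1 against 10.9, 11.4 and 10.7 in MBNL KD (1.15). Among 21 transcription factors of smooth muscle and mesenchyme, SRF, its cofactors and KLF, MEF2, GATA and TEAD members among them, only Gata4 was called (4.76%, against 11.9% of all genes). Gata4 stood at -1.40, at 0.168 CPM in RBPMS KD1 and 0.443 in MBNL KD. That call was lost with counts thinned to 25%, in limma and in the test against a 2-fold change. The adjusted p alone was passed by 18 of the 21 genes, 10 higher in RBPMS KD1 and 8 higher in MBNL KD, against 34.5% and 35.1% of all genes.

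**Figure D3:**
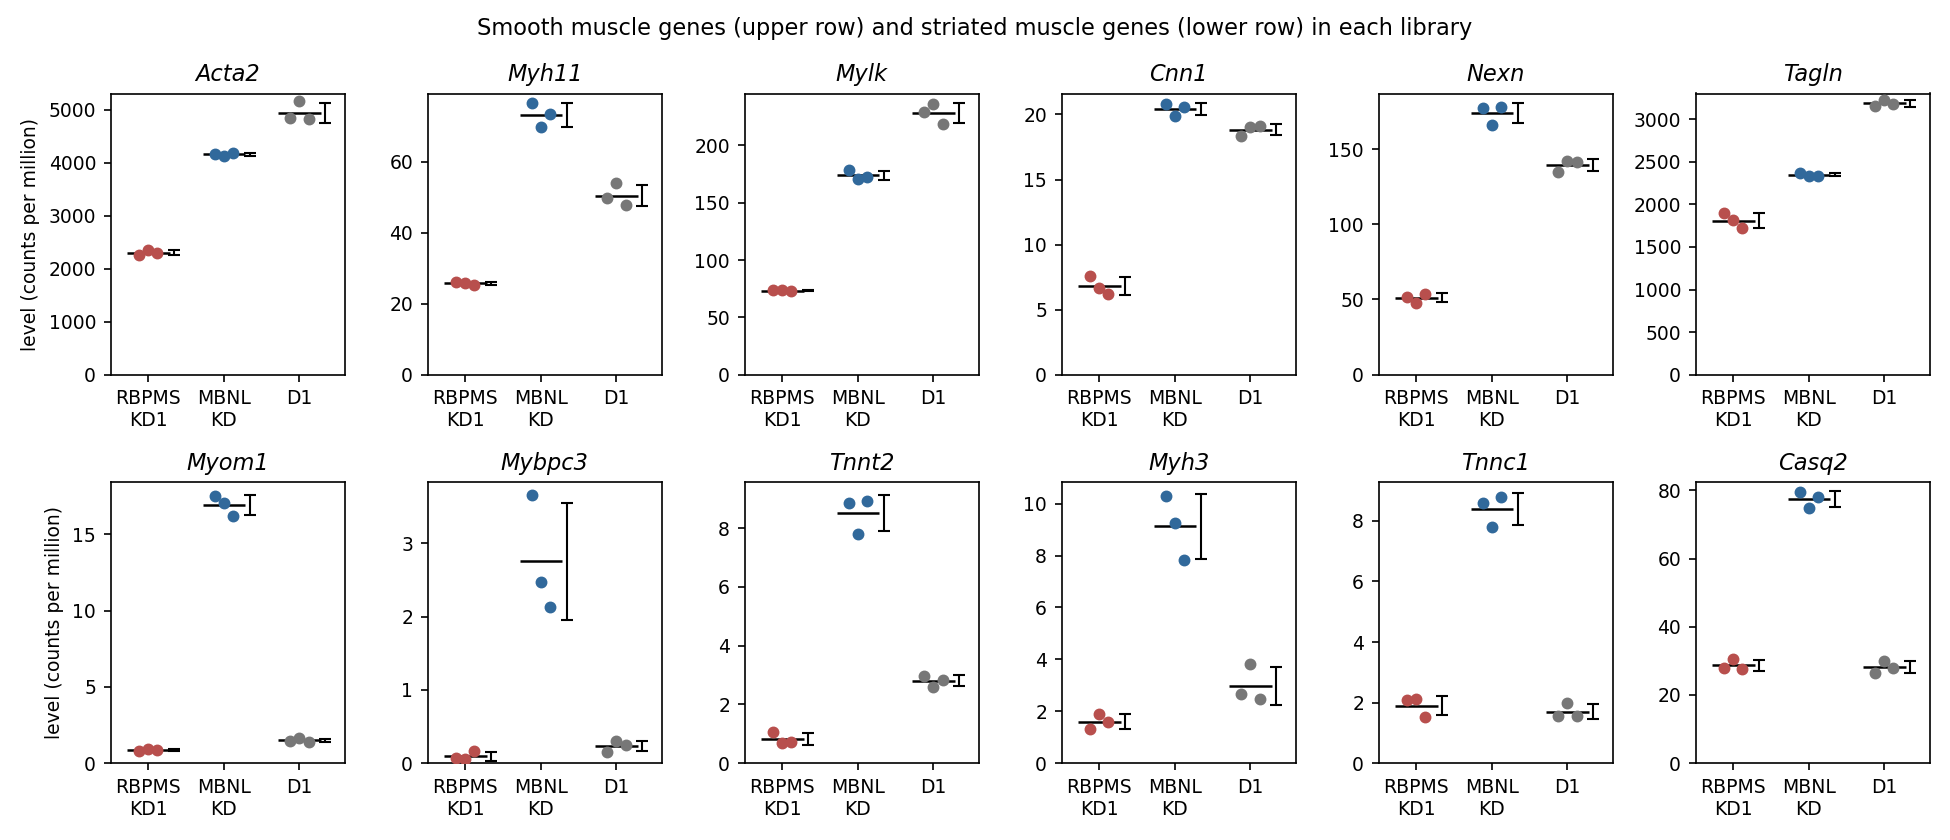
Level in CPM (linear axes from 0) of 6 smooth muscle genes (upper row) and 6 striated muscle genes (lower row), with 1 point per library, the group mean as a line and the SD as an error bar beside it (n = 3). All 12 genes are higher in every MBNL KD library than in any RBPMS KD1 library, with the largest fold changes in Mybpc3 and Myom1 and the smallest in Tagln. D1 lies below MBNL KD in all 6 striated muscle genes and above it in Acta2, Mylk and Tagln.

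Ubiquitin ligase adaptors and calpains, several of them muscle-enriched, made a small list of 17 tested genes. Of these, 8 (47.1%, against 11.9% of all genes) were called, 3 higher in RBPMS KD1 and 5 higher in MBNL KD. The members were chosen with earlier results of these data known, so this share only describes the list. Fbxl22, an F-box protein of the cardiac Z-disc, was at 2.95, 3.05 and 3.47 CPM in RBPMS KD1 and at 18.8, 19.4 and 19.8 in MBNL KD (-2.61 ± 0.07, adjusted p = 6.57e-24). Asb13 (-1.84) and Asb2 (-1.7), both substrate adaptors of cullin ligases, also stood higher in MBNL KD. Capn9, a calpain protease of the digestive tract, was the largest difference toward RBPMS KD1 among genes of at least 1 CPM, at 4.68, 4.8 and 5.25 in RBPMS KD1 against 0.121, 0.153 and 0.158 in MBNL KD (D1 mean 3.57, 5.08 ± 0.17, adjusted p = 2.18e-21).

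Among splicing regulators, 7 of 25 tested (28%, against 11.9% of all genes) were called, 3 higher in RBPMS KD1 and 4 higher in MBNL KD. Celf3 and Celf4 belong to the CELF family, which often acts against MBNL on the same exons. Celf4 was at 0.202, 0.124 and 0.412 CPM in RBPMS KD1 and at 2.07, 1.95 and 1.62 in MBNL KD (-2.93 ± 0.26), and Celf3 was at 0.661, 0.574 and 0.723 and at 3.81, 3.96 and 4.19 (-2.61 ± 0.14). Both were scarce and were higher in every MBNL KD library, with D1 means of 0.313 and 0.513. The other tested members were not called, and Celf1, the most abundant at means of 181 and 168 CPM, stood at 0.11, Celf2 at 0.05 and Celf5 at 0.21. Ptbp3, a paralog of the polypyrimidine tract repressor PTBP1, was at 72.2, 68.8 and 72.3 in RBPMS KD1 against 163, 165 and 164 in MBNL KD and 167 on average in D1 (-1.21). Elavl2 (-1.17), a neuronal RNA-stabilising protein, was the remaining call on that side. Khdrbs3, a STAR-family regulator, was at 11.2, 10.3 and 11.5 in RBPMS KD1 and at 3.53, 3.66 and 3.98 in MBNL KD (1.56 ± 0.08), and Esrp2, an epithelial regulator, at 3.27, 2.87 and 3.32 and at 0.901, 1.23 and 1.19 (1.51 ± 0.14). Raver1, a corepressor of PTBP1, was at 95.9, 96.5 and 98.6 in RBPMS KD1 against 48.4, 45.5 and 45.3 in MBNL KD (1.06).

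The lists of core splicing genes held 1 call each. Of 29 SR and hnRNP proteins only Hnrnpf was called (3.45%, against 11.9% of all genes). Most of these proteins are abundant, and the share called was 7.01% of genes with a mean of 10 to 100 CPM and 6.12% at 100 CPM or more. The adjusted p was passed by 25 of the 29, 6 higher in RBPMS KD1 and 19 higher in MBNL KD, against 34.5% and 35.1% of all genes. Hnrnpf was at 205, 198 and 201 CPM in RBPMS KD1 against 446, 429.9 and 424 in MBNL KD (D1 mean 388, -1.11 ± 0.03, adjusted p = 1.10e-24). Of 50 spliceosome and nonsense-mediated decay genes only Snrpd2 was called (2%). The adjusted p was passed by 37 of the 50, 18 higher in RBPMS KD1 and 19 higher in MBNL KD, against the same 34.5% and 35.1% of all genes. Genes with splicing events after RBPMS knockdown were read as a further list. Of 422 such genes, which the study itself selected on RBPMS KD1 libraries used here, 35 (8.29%) were called against 11.9% of all genes, 27 higher in RBPMS KD1 and 8 higher in MBNL KD (median log2 fold change 0.09). Scarce genes, which are rare in that list, were called more often. At a mean of at least 10 CPM the shares were 8.48% of 389 such genes and 6.81% of all 9339 genes. The largest were Cyb561a3, a lysosomal iron reductase, at 29.3, 30.5 and 27.4 in RBPMS KD1 and 4.5, 4.73 and 4.2 in MBNL KD (2.7 ± 0.06), Mbnl1 itself, and Poteh at 12.8, 15.2 and 14 and 3.33, 2.84 and 3.04 (2.19 ± 0.08). Fbln2, fibulin 2, was the largest in the other direction (-1.92 ± 0.03).

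The largest differences toward RBPMS KD1 included 3 abundant genes whose D1 level was near that of RBPMS KD1. Smpd3, the neutral sphingomyelinase that releases ceramide, was at 188, 193 and 194 CPM in RBPMS KD1 and at 6.94, 6.92 and 5.99 in MBNL KD (D1 mean 149.6, 4.85 ± 0.04, adjusted p = 3.81e-36). Akr1a1, an aldehyde reductase, was at 549.6, 544 and 528 and at 78.3, 74.2 and 79.3 (D1 mean 504, 2.81 ± 0.03). Atp6v0e1, a small subunit of the proton pump of lysosomes, was at 90.7, 98.1 and 90.8 and at 9.83, 10.7 and 10.7 (D1 mean 78.5, 3.16 ± 0.04). The groups were far apart in all 3 genes, and D1 lay near RBPMS KD1. Penk, the precursor of the enkephalin opioid peptides, was at 94.4, 90.6 and 90.5 in RBPMS KD1 and at 4.15, 2.61 and 3.88 in MBNL KD, and here D1, at 46.5, lay between them (4.7 ± 0.07). Arrdc4 and Txnip, arrestin-like proteins that restrain glucose uptake, stood at 3.03 and 1.84, and Pdk4, the kinase that turns pyruvate away from oxidation, at 2.55. Lifr, the receptor for leukaemia inhibitory factor, Slco1c1, a thyroid hormone transporter, Syt1, a calcium sensor of vesicle release, Adm, the vasodilator adrenomedullin, and the long noncoding RNA LOC120094124 were also among the 12 largest, from 3.54 to 2.81. Arrdc4, Txnip and Pdk4 were 3 of the 4 calls among 33 glycolysis and hypoxia genes, a share of 12.1% against 11.9% of all genes, with a list median of -0.09, and 6 of 9 calls among 43 genes (20.9%) of lipid uptake, sphingolipids and lysosomes were higher in RBPMS KD1. Tppp3, a tubulin-binding protein, met the limit of at most 3 counts in each MBNL KD library and at least 30 in each RBPMS KD1 library.

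In several multi-subunit complexes 1 abundant subunit differed more than the others, as seen in sets chosen after the values were known. Of all genes 11.9% were called, and 7.01% of those with a mean of 10 to 100 CPM and 6.12% at 100 CPM or more. A call or 2 in sets of 6 to 19 genes lies near the share of all genes, and the sets were not tested. Mcm6 was at 90.8, 87.1 and 89.8 CPM in RBPMS KD1 and at 28, 27.9 and 28.3 in MBNL KD (D1 mean 106, 1.67 ± 0.03, adjusted p = 2.06e-27), while the other 5 subunits of the MCM2-7 replicative helicase ranged from -0.12 to 0.51. Snrpd2, of the Sm ring of the spliceosome, was at 56.7, 58.2 and 54.7 and at 26.8, 25.2 and 25 (1.14 ± 0.04), with the other 6 Sm genes from -0.23 to 0.39. Rplp0, the ribosomal stalk protein often used as a reference gene, was at 927, 970.0 and 911 and at 338, 338 and 337 (D1 mean 1027, 1.47 ± 0.03). The partners of Rplp0 in the stalk, Rplp1 and Rplp2, were at -0.07 and -0.09, and of 97 cytosolic ribosomal protein genes the only other call was the scarce Rpl3l (-2.56). Among 19 subunits of the lysosomal proton pump Atp6v0e1 and the scarce Atp6v1b1 (1.88) were called, the rest lying between -0.26 and 0.90. Atp1b3, a beta subunit of the sodium pump, was at 876, 878 and 925 and at 321, 311 and 323 (1.49 ± 0.03), with the other 7 sodium pump genes from -0.48 to 0.87 and the beta subunit Atp1b1 at the upper end. In Mcm6, Snrpd2, Rplp0, Atp6v0e1 and Atp1b3 the MBNL KD level was the low one and D1 was near RBPMS KD1. Whether these single-subunit differences follow the loss of MBNL or the MBNL siRNAs themselves cannot be told apart.

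**Figure D4:**
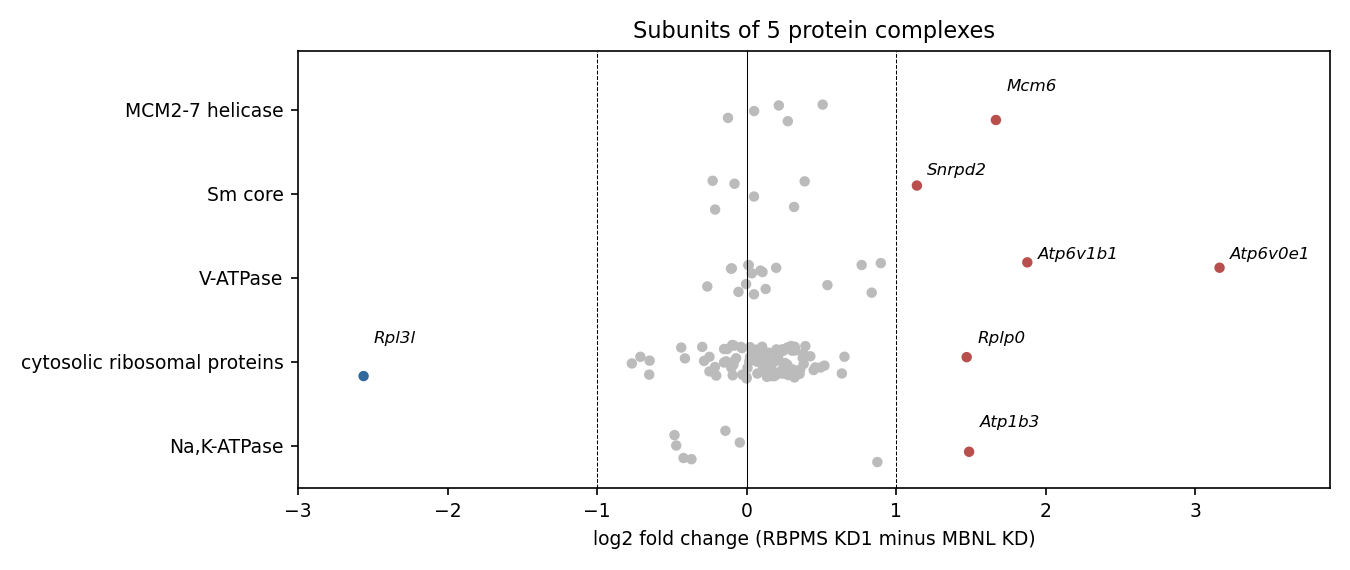
Log2 fold change (RBPMS KD1 minus MBNL KD) of each tested subunit of 5 protein complexes, with 1 point per gene, genes called higher in RBPMS KD1 in red, called higher in MBNL KD in blue, the rest in grey, and dashed lines at a 2-fold difference. Mcm6 (1.67), Snrpd2 (1.14), Atp6v0e1 (3.16), Rplp0 (1.47) and Atp1b3 (1.49) lie apart from most of the other members of their complexes.

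Secreted matrix genes separated the knockdowns in both directions. Of 35 matrix glycoprotein genes tested 10 (28.6%, against 11.9% of all genes) were called, 3 higher in RBPMS KD1 and 7 higher in MBNL KD, and of 30 proteases and inhibitors 9 (30%), 3 and 6. Ccn4, a matricellular Wnt target, was at 36.9, 34.9 and 36.1 CPM in RBPMS KD1 and at 198, 199 and 201 in MBNL KD (D1 mean 48.4, -2.47 ± 0.03, adjusted p = 9.56e-33). Fbln2 was at 146, 154 and 149 and at 569, 582 and 547, and Thbs1, thrombospondin 1, at 1454, 1476 and 1495 and at 3646, 3611 and 3735 (-1.31 ± 0.02). These 3 genes were higher in every MBNL KD library, with D1 nearer RBPMS KD1. Thbs2, the close relative of Thbs1, went the opposite way at 59.8, 63 and 60.0 in RBPMS KD1 and 15, 13.8 and 15.4 in MBNL KD (2.05 ± 0.04). The small proteoglycan decorin (Dcn) was at 20.3, 21.7 and 19.9 and at 5.26, 5.44 and 5.37 (1.95 ± 0.06), and Mmp2, gelatinase A, at 69.2, 73 and 64.7 and at 21.3, 21.5 and 22.2 with D1 at 14.3 (1.67 ± 0.04). Among called genes, those furthest toward RBPMS KD1 by difference in CPM included Fndc1, a fibronectin-domain protein, at 915, 1002 and 927 against 173, 168 and 165, Epyc, the proteoglycan epiphycan, at 935, 1022 and 943 against 258, 239 and 252, and Ctsb, the lysosomal protease cathepsin B, at 1179, 1187 and 1192 against 342, 331 and 329. The calcium-binding chaperone Rcn1 stood at 1.79. Toward MBNL KD the same ranking of called genes held Anxa1, the phospholipid-binding annexin 1, at 380.4, 381 and 375 against 875, 859 and 885 (-1.21 ± 0.03). Among the proteases Adamts9 stood at -1.46 and the inhibitor Timp4 at 1.69.

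Adhesion receptors and focal adhesion genes gave 7 calls of 38 (18.4%, against 11.9% of all genes), 2 higher in RBPMS KD1 and 5 higher in MBNL KD. Itga2, a collagen receptor, was at 5.94, 5.79 and 6.28 CPM in RBPMS KD1 and at 25.2, 25.2 and 22.8 in MBNL KD (-2.02 ± 0.06), and Itga9, a tenascin receptor, at 2.56, 2.59 and 2.33 and at 10.5, 9.66 and 9.82 (-2.0 ± 0.08). Tns2, which links integrins to actin, was at 167, 167 and 168 and at 63.4, 65.2 and 65.4 (1.37 ± 0.03). Of 26 collagens 3 were called (Col11a2 at 1.27, Col10a1 at 1.00 and Col4a3 at -1.93), or 11.5% against 11.9% of all genes. The adjusted p was passed by 22 collagens, 11 in each direction, against 34.5% of all genes higher in RBPMS KD1 and 35.1% higher in MBNL KD. Guidance and junction genes gave 11 calls of 49 (22.4%), 6 and 5. Plxnd1, a semaphorin receptor of vessels, was at 215, 224 and 219 in RBPMS KD1 and at 54.4, 53.8 and 54.8 in MBNL KD (2.01 ± 0.03), while Gja5, connexin 40, was at 0.269, 0.247 and 0.356 and at 3.77, 3.2 and 3.2 (-3.54 ± 0.18). The guidance receptors Robo2 (-1.84) and Ephb2 (-1.78) were higher in MBNL KD as well.

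Genes of the TGF-beta and BMP pathway, taken as 1 list, split between the knockdowns. Of 36 genes 11 were called (30.6%, against 11.9% of all genes), 4 higher in RBPMS KD1 and 7 higher in MBNL KD. Inhba, the activin A subunit, was at 251, 238 and 252 CPM in RBPMS KD1 and at 719, 742 and 730.1 in MBNL KD (-1.56 ± 0.03), and the BMP ligand Gdf6 was at 78.9, 76.3 and 77.6 and at 237, 242 and 226 (-1.60). Id1, a BMP target that blocks differentiation factors, was at 8.65 ± 0.81 CPM (SD, n = 3) and at 31.5 ± 1.6 (-1.86 ± 0.06), and its relative Id2 at 4.14, 4.07 and 4.5 and at 14.8, 12.9 and 14.6 (-1.73). These 4 genes were higher in every MBNL KD library. The BMP receptor Bmpr1b stood at -1.76. The ligand Tgfb1 was higher in RBPMS KD1, at 133, 139 and 138 against 59.7, 58.4 and 59 (1.21), as was the coreceptor Tgfbr3, at 52, 52.4 and 51.7 against 16, 14 and 14.7 (1.81 ± 0.04). In the Wnt and Notch list 10 of 39 genes (25.6%) were called, 8 higher in RBPMS KD1, with a median of 0.40. Axin2, a feedback target of Wnt signalling, was at 7.44, 7.43 and 7.13 and at 2.37, 2.44 and 2.38 (1.61 ± 0.09), the ligand Wnt9a at 5.6, 5.6 and 5.63 and at 2.31, 1.75 and 1.8 (1.52 ± 0.11), and the secreted antagonist Sfrp2 at 2.28, 2.92 and 2.85 and at 0.769, 0.745 and 0.827 (1.78 ± 0.16). The list gave 3 calls with limma on the normalised values and 3 with the test against a 2-fold change.

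Growth factor genes gave 9 calls of 42 (21.4%, against 11.9% of all genes), 4 and 5. Igf2r, which clears insulin-like growth factor 2, was at 900.2, 893 and 881 CPM in RBPMS KD1 and at 398, 394 and 398 in MBNL KD (1.17 ± 0.02), Igfbp4 stood at 1.22, and Hbegf, an EGF receptor ligand, was at 36.6, 36.5 and 38.1 and at 90.4, 94.4 and 89.6 (-1.3 ± 0.03). Fgfr2 was at 2.25, 1.84 and 2.52 and at 9.17, 7.58 and 8.14 (-1.91 ± 0.10). Cell cycle genes differed in a shallow but broad way. Of 53 tested only Mcm6 and Rrm2, a subunit of ribonucleotide reductase at 24.9, 24.7 and 26.3 and 12.1, 12.7 and 11.9 (1.05), were called higher in RBPMS KD1, and Ccnd2, cyclin D2, at 1.08, 0.798 and 0.913 and 5.57, 4.85 and 5.07 (-2.47), was called higher in MBNL KD. The adjusted p alone was passed by 38 of the 53 genes higher in RBPMS KD1 and by 8 higher in MBNL KD (median 0.36), against 34.5% and 35.1% of all genes. Among these, the mitotic kinase Plk1 stood at 0.94, the proliferation marker Mki67 at 0.48 and cyclin D1 (Ccnd1) at -0.27. Summed over the list, the libraries held 3891 to 3996 CPM in RBPMS KD1, 3515 to 3533 in MBNL KD and 4276 to 4388 in D1. The summed D1 level thus lay above both knockdowns.

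Interferon-stimulated genes leaned to RBPMS KD1. Of 49 tested 15 (30.6%, against 11.9% of all genes) were called, 14 higher in RBPMS KD1 and 1 (Oas2) higher in MBNL KD, with a median log2 fold change of 0.54. Cxcl10, a T-cell chemokine, was at 11.5, 8.8 and 10.5 CPM in RBPMS KD1 and at 2.11, 1.69 and 2.47 in MBNL KD (D1 mean 7.54, 2.31 ± 0.11, adjusted p = 6.86e-18). The GTPase gene Ifi47 was at 6.33, 4.98 and 4.96 and at 1.49, 1.37 and 1.46 (D1 mean 2.66, 1.91 ± 0.12), and the tetherin gene Bst2 at 4.37, 4.0 and 3.54 and at 1.7, 0.679 and 1.63 (D1 mean 2.88, 1.58 ± 0.18). Oasl2, an antiviral protein of the OAS family, was at 10.2, 7.62 and 7.58 and at 3.37, 1.5 and 2.52 with D1 at 3.69 (1.78 ± 0.15). In these 4 genes the groups did not overlap, but the spread within a group was wide, and replicate 1 was the highest RBPMS KD1 library in each. Summed over the list the libraries held 1567, 1422 and 1397 CPM in RBPMS KD1, 1225, 1026 and 1102 in MBNL KD and 1108 to 1152 in D1, and leaving out 1 library at a time gave 13 to 21 calls. The groups received different RNA duplexes, and a response to a duplex cannot be told apart from the loss of a protein.

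A promoter pattern of interferon control was read in the list. Of 37 members with a RefSeq promoter, 23 (62.2%) held GAAANNGAAA on either strand, the pattern recognised by interferon regulatory factors, against 3.77% of all 27457 promoters. Genes of this list are known for such control, so the share describes the list and not these libraries. Of the 12 called members with a promoter 7 held it. The stretches of 4 called members are shown, with matches on either strand in capitals (2 that overlap in Bst2) and with GRCr8 coordinates.
Oasl2, chr12:47383317-47383346 (-): aaagctttggTTTCAGTTTCcaggcttgag
Bst2, chr16:18255079-18255108 (-): ccctttccagGAAAATGAAACTGAAAggtg
Gbp2, chr2:234005686-234005715 (+): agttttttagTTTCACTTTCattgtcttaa
Ifi44, chr2:243303847-243303876 (-): gcacactgagTTTCAGTTTCatttcccagg
Gbp2, a guanylate-binding protein, was at 39.9, 39 and 40.1 CPM in RBPMS KD1 and at 18, 15.1 and 15.5 in MBNL KD (1.29), and Ifi44 at 32.9, 29.7 and 30.9 and at 17.4, 12.4 and 14.7 (1.08). Members with the pattern that passed no test or pointed the other way included Rsad2 (0.03), Ifit3 (-0.35, adjusted p = 0.160) and Ifitm3 (-0.42, adjusted p = 1.54e-14). The same search gave 1 of 29 contractile smooth muscle promoters with a CArG box, the binding pattern of SRF (Ldb3), against 1.64% of all promoters, and 4 of 34 stress-list promoters with TGATGNAA, the pattern of ATF4 sites, against 3.82%.

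Among chemokines, cytokines and complement the calls went both ways. Of 28 genes tested 6 (21.4%, against 11.9% of all genes) were called, 2 higher in RBPMS KD1 and 4 higher in MBNL KD. Ccl7, a monocyte chemokine, was at 70.3, 69.5 and 71 CPM in RBPMS KD1 and at 347, 354 and 352 in MBNL KD (D1 mean 61.6, -2.32 ± 0.03, adjusted p = 2.61e-32). Ccl11, eotaxin, was at 1.92, 2.34 and 1.98 and at 12.8, 13.3 and 12.8 (-2.64 ± 0.08). Csf1, the macrophage growth factor, was at 433, 433 and 432 and at 101, 103 and 103 (D1 mean 257, 2.08 ± 0.03), and C1s, a protease of the classical complement pathway, at 119, 118 and 113 and at 21.1, 18.9 and 20.3 (D1 mean 44.3, 2.54 ± 0.04). For both chemokines D1 lay near RBPMS KD1, and for Csf1 and C1s it lay between the knockdowns. Olr1, a scavenger receptor for oxidised lipoprotein, was at 3.58, 4.21 and 3.63 in RBPMS KD1 and at 24.2, 25.2 and 24.3 in MBNL KD (-2.69 ± 0.07). Granzyme B (Gzmb, -3.8), the B7-family ligand Hhla2 (-3.65) and the junctional adhesion molecule Jaml (-3.51) were among the 12 largest toward MBNL KD, each at most 0.281 CPM in RBPMS KD1. Ddx43, an RNA helicase of germ cells, was at 0.0784, 0.090 and 0.089 in RBPMS KD1 and at 1.89, 1.95 and 2.53 in MBNL KD (-4.6 ± 0.26), and the long noncoding RNA LOC120096656 at 1.01, 0.562 and 0.879 and at 12, 14 and 14.3 (-4.04 ± 0.12). The uncharacterised gene LOC120099632 stood at -3.62.

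Cth, which makes cysteine from cystathionine and was among the 12 largest toward MBNL KD, was at 1.04, 0.877 and 1.0 CPM in RBPMS KD1 and at 11.4, 11.5 and 10.9 in MBNL KD (D1 mean 1.09, -3.53 ± 0.10, adjusted p = 7.54e-24). Slc7a11, the cystine importer, was at 15.5, 14.2 and 17.2 and at 51.2, 51.4 and 50.5 (-1.7 ± 0.05), and Asns, asparagine synthetase, at 60.1, 63.5 and 61.6 and at 136, 134 and 129 (-1.11 ± 0.03). Slc7a11 and Asns belong to the list of stress genes, of which 6 of 41 (14.6%, against 11.9% of all genes) were called, 2 higher in RBPMS KD1 (Sesn1 at 1.29 and Hspa1b at 1.04) and 4 higher in MBNL KD (Slc7a11, Asns, Gadd45a at -1.06 and Phgdh at -1.03). Of 30 immediate early and YAP target genes only Tead4, a DNA-binding partner of YAP, was called (-1.04), at 36.5, 37 and 36.3 in RBPMS KD1 and 76.1, 75 and 75.1 in MBNL KD. The call of Gadd45a was lost without RBPMS KD1 replicate 2 (-0.97). Sterol and fatty acid synthesis genes gave 2 calls of 30 (6.67%), Stard4 (1.04), which carries cholesterol, and Elovl6 (-1.31), which elongates fatty acids, while the adjusted p alone was passed by 21 higher in RBPMS KD1 and 7 higher in MBNL KD (median 0.33), against 34.5% and 35.1% of all genes.

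Ion handling and vascular tone genes were divided. Of 47 channels and pumps 10 (21.3%, against 11.9% of all genes) were called, 4 higher in RBPMS KD1 and 6 higher in MBNL KD, and of 42 vasoactive receptors and G-protein regulators 7 (16.7%), 4 and 3. Trpc6, a receptor-operated calcium channel, was at 73, 77 and 78.7 CPM in RBPMS KD1 and at 205, 203 and 199 in MBNL KD (-1.41), and Trpv2, a stretch-sensitive channel, at 41.2, 39.8 and 40.2 and at 12.5, 11.9 and 13.4 (1.68 ± 0.05). Wnk2, a kinase that tunes chloride transport, was at 0.314, 0.439 and 0.10 and at 3.27, 3.25 and 2.83 (-3.45 ± 0.23), and Atp2a3, a calcium pump of the endoplasmic reticulum, at 0.47, 0.472 and 0.601 and at 2.39, 2.42 and 2.03 (-2.15 ± 0.17). The angiotensin receptor Agtr1a was at 1.41, 1.51 and 1.66 and at 3.68, 3.32 and 3.54 (-1.2 ± 0.12), and the ATP-gated channel P2rx1 at 0.381, 0.439 and 0.456 and at 1.83, 2.32 and 1.75 (-2.21 ± 0.19). All 6 of these genes separated the groups in every library.

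**Figure D5:**
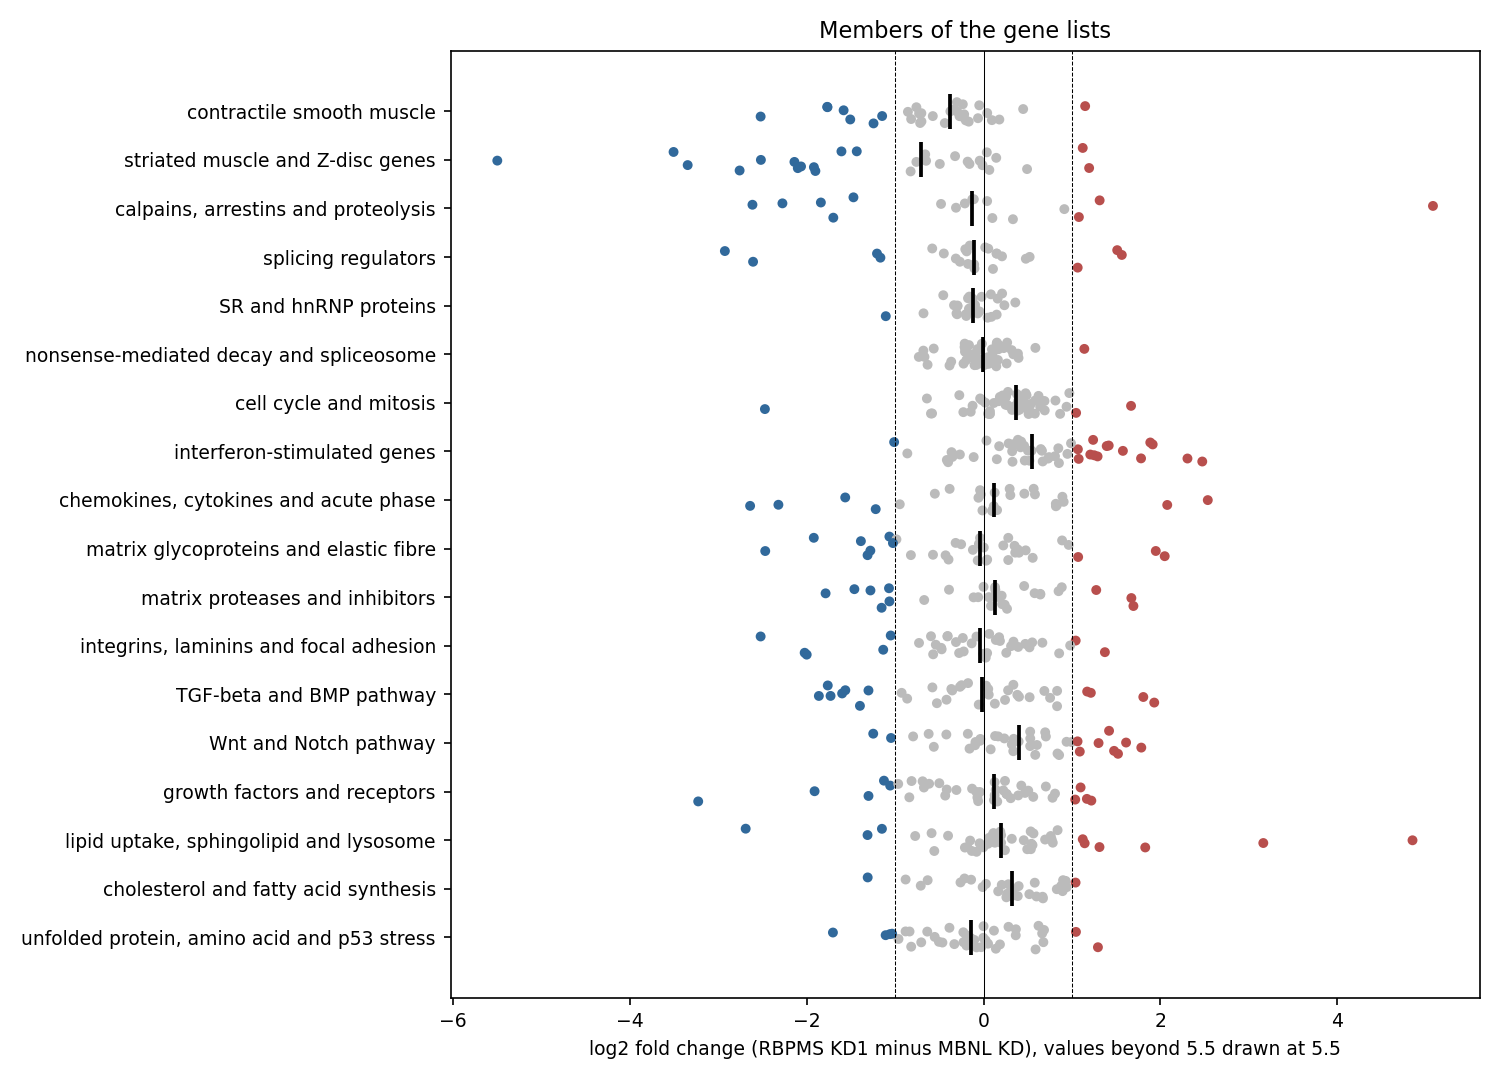
Log2 fold change (RBPMS KD1 minus MBNL KD) of every tested member of 18 gene lists, with 1 point per gene, the list median as a black line, genes called higher in RBPMS KD1 in red, called higher in MBNL KD in blue and the rest in grey. Striated muscle genes (median -0.71) lie furthest to the left among these lists, interferon-stimulated genes (0.54), Wnt and Notch (0.40) and cell cycle genes (0.36) furthest to the right.

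Markers of other cell types were read for the same libraries. The smooth muscle genes above were present in every library. Cdh5, Kdr, Cldn5 and Emcn of endothelium, Adgre1, Itgam and Tyrobp of macrophages, and Epcam, Krt14 and Esrp1 of epithelium had 0 counts in all 6 libraries. Other members were detected in every library, among them Egfl7 (905 to 1382 counts a library), Erg (83 to 182) and Vwf (46 to 96) of endothelium. Grhl2 of epithelium had 940 to 1648 counts. No tested member of those 3 lists was called (4 endothelial, 5 macrophage and leukocyte and 2 epithelial genes). Their summed levels were 13.05 to 13.9 CPM in RBPMS KD1 and 17.6 to 18.6 in MBNL KD for the endothelial list, 84.2 to 86.4 and 52.6 to 55.6 for the macrophage and leukocyte list, most of it Cd14 (4149 to 7538 counts a library), and 48.9 to 52.4 and 70.4 to 71.2 for the epithelial list, most of it Krt8. Fibroblast markers were higher in RBPMS KD1. Of 8 tested all 8 passed the adjusted p in that direction, against 34.5% of all genes, and 4 (50%, against 11.9% of all genes) were called. The summed levels were 1194 to 1228 CPM in RBPMS KD1, 758 to 782 in MBNL KD and 1231 to 1253 in D1. Most of the sum was Col14a1 (1012, 660 and 1062 CPM on average, not called at 0.62). Clec3b, the matrix protein tetranectin, was at 51.8, 55.2 and 48.3 in RBPMS KD1 and at 7.33, 7.05 and 7.19 in MBNL KD (D1 mean 23.2, 2.85 ± 0.05), and Scara5, a ferritin receptor, at 13.3, 13.5 and 12.2 and at 4.05, 3.43 and 3.71 (D1 mean 3.16, 1.8 ± 0.08). Decorin and dermatopontin (Dpt, 2.71) were the other calls, and Cd34 and Tcf21 had 0 counts in every library. Neuronal and glial markers gave 3 calls of 7 (Syt1 at 2.82, S100b at 1.89 and Gfap at -2.50), with summed levels of 21.2 to 22.2 CPM in RBPMS KD1 and 13.2 to 13.8 in MBNL KD. In bulk RNA fewer cells of a type and less RNA per cell cannot be told apart. The study describes its knockdowns as repeated in biological replicates. The labels do not say how the cultures behind these libraries were separated, so p-values measure the spread between libraries of 1 cell line.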

How the data were processed

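RNA was measured in 12 libraries of PAC1 cells, of which the 3 RBPMS KD1 and 3 MBNL KD libraries were compared. The authors drew a fixed number of read pairs per library, aligned them with STAR (version 2.7.11b per the submitters' processing notes) to the rat assembly mRatBN7.2, and deposited raw counts per gene from featureCounts, with libraries of 80842635 to 90771289 counts. They also deposited normalised values, a signal made by noise filtering with noisyR and quantile normalization, used here only in an alternative. Strand and read-pair settings of the counting are not given in the sources used here. A count of 3 corresponded to 0.0328 to 0.0365 CPM, a floor that covers counting error only.

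Groups came from the sample labels. Counts were filtered with filterByExpr, scaled by TMM and tested with edgeR's quasi-likelihood test (edgeR 4.0.16, R 4.3.3) over all 16111 genes kept, with Benjamini-Hochberg adjustment, in a fit of the 6 libraries without covariates. Genes were called at adjusted p under 0.05 and a log2 fold change beyond 1. On simulated counts of this comparison (16075 genes kept) 100 of 100 genes changed by a log2 of 2 and 100 of 100 changed by 3 were recovered, with 2 false calls. The changed genes were drawn only from well-counted genes, with a preset spread. Recovery of scarce genes was therefore not simulated. D1 levels were scaled with the same reference and not tested.

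Genes were named by rule: the siRNA targets and paralogs, the 12 largest changes per direction among called genes with non-overlapping groups and at least 1 CPM, up to 4 called members per list, 8 smooth muscle genes, up to 6 genes per direction with at most 3 counts in one group and at least 30 in the other, and up to 6 called genes per direction with the largest CPM difference. Other genes appear as members of a list's count or are said to be chosen afterwards. Some genes that the rule named are not reported here. The gene lists, the members and the sets of complexes were chosen with earlier results of these data known. Gene names and biotypes were matched by symbol to RefSeq (GRCr8) for 14208 of the 16111 genes. Promoter sequences are those of RefSeq GRCr8.

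Replicate numbers were checked for pairing: the correlation of deviations between same-numbered libraries of both groups was 0.0241, 0.0248 and -0.000643, so the numbers were treated as names. Alternatives covered normalization, filtering, DESeq2 1.42.0, limma 3.58.1 on the normalised values, all 12 libraries in 1 fit, a replicate block, thresholds, thinning to 25% of counts, and leaving out each library. The authors' list of RBPMS KD1 splicing events supplied gene names only.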

Additional observations from a re-analysis of the deposited data

How the results depend on the processing

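The number of genes called, 1920 (972 higher in RBPMS KD1 and 948 higher in MBNL KD), stayed within 1.5 times of these values under most alternatives. It was 1050 (585 and 465) with limma on the authors' normalised values, 973 (521 and 452) when the test was made against a 2-fold change, and 11202 (5553 and 5649) with no fold threshold, where by construction every gene past the adjusted p counts. Leaving out 1 library at a time gave 1945 to 2002 calls, 982 to 1042 higher in RBPMS KD1 and 936 to 993 higher in MBNL KD, with 1737 to 1763 of the 1920 genes shared. With a replicate block there were 1915 calls (967 and 948), 1895 of them shared, and it changed no call among the named genes. DESeq2 called 1844 genes, quantile normalization 1894 (1036 and 858), a minimum of 10 counts per library 1465 (812 and 653), thinned counts 1457 (803 and 654) and no filter 2127. No named gene changed direction under any alternative that tested it. A minimum of 10 counts in each library left 113 of the 123 named genes testable, without Ddx43, Gzmb, LOC120099632, Lmod3, Mybpc3, Myod1, RGD1561551, Slco1c1, Tppp3 and Wnk2, and thinned counts left 120, without Myod1, RGD1561551 and Tppp3. Rn45s and Rpph1 lost their call without MBNL KD replicate 3, with DESeq2 and with limma on the normalised values, and Gadd45a lost it without RBPMS KD1 replicate 2. Limma on the normalised values also left Rrm2, Wnt4, Agtr1a and Stard4 just under a 2-fold difference (0.98, 0.98, -0.998 and 0.98). Genes under 1 CPM were called most often (22.2% from 0.1 to 1 CPM against 6.12% at 100 CPM or more), and the cause was not tested. By construction, the genes that the stricter filters left untested had few counts in at least 1 group, which is where depth limits the comparison.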

Other observations

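Several of the largest differences at high abundance fell outside the rule for naming genes and are given here after their values were seen. Among called genes beyond a 4-fold difference and with a mean of at least 50 CPM in the higher group, 28 were higher in RBPMS KD1 and 4 were higher in MBNL KD. Cyb5r3, the reductase that keeps cytochrome b5 and haemoglobin reduced, was at 561, 587 and 578 CPM in RBPMS KD1 and at 89.6, 89.3 and 85.3 in MBNL KD, with a D1 mean of 507 (log2 fold change 2.71 ± 0.03, adjusted p = 6.72e-33). Tspo, a cholesterol-binding protein of the outer mitochondrial membrane, was at 237, 235 and 215 against 44.4, 45.8 and 43.1 (2.37 ± 0.03), Capg, an actin-capping protein, at 219.7, 203 and 198 against 45.0, 42.6 and 43.4 (2.24 ± 0.03), and Cmtm6, which stabilises the checkpoint ligand PD-L1, at 132, 129.5 and 133 against 28.3, 27.2 and 26.9 (2.26 ± 0.03). Mmd, a macrophage differentiation-associated membrane protein, went the other way at 9.90, 9.97 and 10.8 against 91.9, 88.5 and 89.9, with a D1 mean of 36.4 (-3.14 ± 0.04, adjusted p = 1.29e-31). The libraries of the groups did not overlap in any of these 5 genes. A further leiomodin of striated muscle, Lmod2, had 0 counts in each RBPMS KD1 library and 28, 27 and 16 counts in MBNL KD, and the tetraspanin gene Tspan8 had 22, 32 and 22 counts in RBPMS KD1 and 0 in each MBNL KD library.

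Neighbouring genes were called together in 16 places where at least 3 tested genes in a row along GRCr8 were called in 1 direction. They included the chemokine genes Ccl7, Ccl11 and Ccl12, higher in MBNL KD, and the guanylate-binding protein genes Gbp4, Gbp2 and Gbp1, higher in RBPMS KD1. The longest run was 5 genes on chromosome 9 at the Ugt1a locus, higher in MBNL KD, where the glucuronosyltransferase genes share exons, so counts of single members are uncertain there.

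The RBPMS siRNA and the forward primer that the study lists for quantitative PCR of Rbpms cover the same stretch with 1 difference. The primer AAAGCCGAGAAGGAGAACACC overlaps positions 7 to 25 of the siRNA sense strand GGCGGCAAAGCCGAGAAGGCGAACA, counted from its 5′ end, and over these 19 bases it differs at C20A (siRNA base first, U and T counted as equal). Which of the listed letters matches the rat transcript was not tested here.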
